A study of Mus musculus with 10 samples.

Results

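The output factors of the circadian clock are the genes through which it acts on D-box, E-box and ROR elements of other genes. The set held 8 genes of the 55335 in the deposited table, Dbp, Tef, Hlf, Nfil3, Bhlhe40, Bhlhe41, Ciart and Rora. They were listed by symbol, and each symbol matched 1 Ensembl identifier of the mouse GENCODE vM21 annotation. All 8 had a mean of at least 1 FPKM (sequenced fragments per length of transcript and per total of mapped fragments) over the 10 samples, the minimum for testing, and so were among the 9439 genes tested. The genes were chosen by their roles in the clock together with their values in this same comparison, in which Dbp, Tef, Hlf, Bhlhe40 and Bhlhe41 were past the threshold of the test. Their differences between the groups are therefore given as a description and carry no p-value.

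The samples came from hearts of male offspring. For 5 samples the dams were given anti-Müllerian hormone during pregnancy (PAMH), and for 5 they were given PBS, the vehicle (control). All 10 were labelled wild type, and nothing else was labelled as different between the groups. The labels give no age, strain, litter or time of day of collection, and they do not tie a sample to an animal, so errors and p-values describe how far these 10 samples spread, part of which may be technical or due to litter. Mice exposed to this hormone before birth are used to model polycystic ovary syndrome, and the comparison asked which cardiac genes differ in male offspring. The cardiomyocyte markers Myh6, Tnnt2, Actn2, Tnni3, Myl2, Ryr2, Pln and Ttn were all above the minimum, with a sum of 4496 to 6476 FPKM in PAMH and 5074 to 6290 FPKM in control hearts.

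The core of the mammalian clock is the heterodimer of CLOCK and BMAL1 (the product of Arntl), which binds E-box elements and drives its own repressors, the PER and CRY proteins. The genes described here carry the rhythm outward. DBP, TEF and HLF are activators of the PAR bZIP family that bind D-box elements, and NFIL3 (E4BP4) is a bZIP repressor of the same elements. BHLHE40 (DEC1) and BHLHE41 (DEC2) are repressors that bind E-boxes, CIART (CHRONO) represses CLOCK and BMAL1, and RORα is a nuclear receptor that activates genes with ROR elements, Arntl and Nfil3 among them. In the mouse heart, as in other organs, Dbp RNA has a strong daily rhythm.

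The elements themselves could be read in the promoter windows of RefSeq (build GRCm38.p6, 250 bases before to 50 bases after each transcription start), which held 7 of the 8 members with 8 windows. The motifs searched on both strands were the E-box CACGTG, the variant E-box CACGTT, the D-box as TTACGTAA or TTATGTAA, and the core of the ROR element TAGGTCA, and no matches of different motifs overlapped. Ciart, Bhlhe41, both starts of Tef, and Nfil3 are shown because they held a match, and Dbp because it differed most between the groups. Per3, a D-box gene of the core loop, is shown as an example of D-boxes and was chosen after its sequence and values were seen. Each runs 5′ to 3′ on the strand of its gene, with matches in capitals.
Ciart, chr3:95882179-95882478, minus strand: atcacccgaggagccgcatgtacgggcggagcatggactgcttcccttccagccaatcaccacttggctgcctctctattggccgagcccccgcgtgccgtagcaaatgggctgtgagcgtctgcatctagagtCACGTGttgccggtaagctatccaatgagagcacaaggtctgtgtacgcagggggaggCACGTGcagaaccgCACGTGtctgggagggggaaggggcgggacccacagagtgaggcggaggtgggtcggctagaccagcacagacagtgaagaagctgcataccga
Bhlhe41, chr6:145865371-145865670, minus strand: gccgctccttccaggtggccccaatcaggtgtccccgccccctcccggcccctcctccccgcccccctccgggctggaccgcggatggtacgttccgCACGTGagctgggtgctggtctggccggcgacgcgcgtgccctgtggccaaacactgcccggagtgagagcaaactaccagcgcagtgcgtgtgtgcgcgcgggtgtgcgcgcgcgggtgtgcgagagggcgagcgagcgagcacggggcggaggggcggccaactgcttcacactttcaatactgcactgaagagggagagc
Tef, upstream start, chr15:81802423-81802722, plus strand: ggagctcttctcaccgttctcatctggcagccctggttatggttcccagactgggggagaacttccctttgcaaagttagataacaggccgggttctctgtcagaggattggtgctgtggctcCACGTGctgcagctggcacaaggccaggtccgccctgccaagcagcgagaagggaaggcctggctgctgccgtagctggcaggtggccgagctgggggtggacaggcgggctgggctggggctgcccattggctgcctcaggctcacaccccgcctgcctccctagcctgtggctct
Tef, downstream start, chr15:81811164-81811463, plus strand: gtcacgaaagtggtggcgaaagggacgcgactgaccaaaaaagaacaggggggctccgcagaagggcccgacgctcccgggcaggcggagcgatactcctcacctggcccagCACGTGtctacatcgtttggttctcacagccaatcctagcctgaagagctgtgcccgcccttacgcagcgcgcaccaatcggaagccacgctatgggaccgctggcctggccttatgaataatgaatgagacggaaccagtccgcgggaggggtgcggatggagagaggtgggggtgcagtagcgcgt
Nfil3, chr13:52980990-52981289, minus strand: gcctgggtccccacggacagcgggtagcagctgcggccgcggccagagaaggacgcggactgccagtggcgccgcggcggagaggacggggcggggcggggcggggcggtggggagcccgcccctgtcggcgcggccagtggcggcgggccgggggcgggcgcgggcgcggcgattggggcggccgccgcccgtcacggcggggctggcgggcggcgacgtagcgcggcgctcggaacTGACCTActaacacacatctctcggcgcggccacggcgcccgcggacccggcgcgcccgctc
Dbp, chr7:45704997-45705296, plus strand: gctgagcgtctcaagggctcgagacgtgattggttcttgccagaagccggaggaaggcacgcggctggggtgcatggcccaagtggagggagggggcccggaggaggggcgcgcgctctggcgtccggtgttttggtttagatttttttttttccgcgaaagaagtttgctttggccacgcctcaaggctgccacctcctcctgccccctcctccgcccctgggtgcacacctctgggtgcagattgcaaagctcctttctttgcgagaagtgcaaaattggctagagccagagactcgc
Per3, chr4:151044616-151044915, minus strand: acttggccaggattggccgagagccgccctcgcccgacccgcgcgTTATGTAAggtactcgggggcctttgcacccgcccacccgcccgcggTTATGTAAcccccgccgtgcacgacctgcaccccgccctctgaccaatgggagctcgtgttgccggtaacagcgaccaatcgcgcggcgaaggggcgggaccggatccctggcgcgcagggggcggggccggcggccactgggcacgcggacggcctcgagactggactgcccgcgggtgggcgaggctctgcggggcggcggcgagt

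Ciart held 3 E-boxes, at -116, -58 and -44 bases from its start. An E-box of these letters was found in 7.15% of the 32851 windows of this length in the RefSeq table, and 3 or more in 29 windows (0.0883%). Bhlhe41 held 1 E-box at -153, and Tef held 1 at each of its starts, at -127 and -138. In Nfil3 the core of the ROR element lay on the opposite strand at -12, a match that 2.61% of all windows had. Per3 held 2 D-boxes, at -205 and -158, where 1.06% of windows held at least 1 and 8 windows (0.0244%) held 2 or more. None of the searched letters occurred in the windows of Dbp, Hlf and Rora. A window covers 300 bases, and the rest of each gene was not searched. A match is a description of the sequence.

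**Figure D1:**
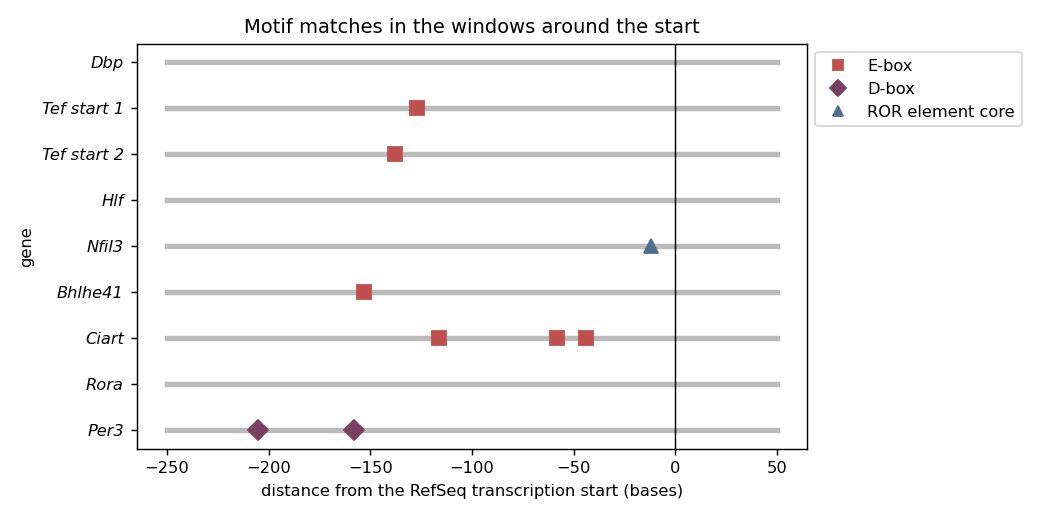
Positions of motif matches (symbols, by motif) in the RefSeq windows of 7 members and of Per3, against the distance in bases from the transcription start (vertical line). Each grey bar is 1 window of 300 bases, Tef has 2, and Ciart holds 3 E-boxes between -116 and -44.

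Among the D-box activators, Dbp differed most. It was at 22.2, 18.3, 18.5, 23.4 and 22.5 FPKM in PAMH replicates 1 to 5, against 8.19, 8.68, 10.2, 4.26 and 8.47 FPKM in control replicates 1 to 5. Every PAMH sample lay far above every control sample, and control replicate 4 was the lowest. The means were 21.0 ± 2.40 FPKM in PAMH and 7.95 ± 2.2 FPKM in control hearts (SD, n = 5 each), a ratio of 2.64. On the scale of log2(FPKM + 1), which is used for all log2 fold changes here and understates those of low genes, the difference was 1.33 (SE 0.17), the 6th largest increase among the 9439 tested genes. Dbp lies on chromosome 7 (45705088 to 45710203, GRCm38, plus strand). Its exons share 539 bases (45709665 to 45710203) with those of Sphk2 on the opposite strand, which averaged 2.52 FPKM, and as no strand setting is given, reads of this stretch cannot be assigned to one of the genes.

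Tef and Hlf, the relatives of Dbp, had smaller differences. Tef was at 10.5, 13.9, 13.2, 10.7 and 11.7 FPKM in PAMH replicates 1 to 5 and at 8.99, 9.67, 9.07, 8.14 and 8.54 FPKM in control replicates 1 to 5, and the groups did not overlap (log2 fold change 0.39, SE 0.09; chromosome 15, 81802421 to 81826863). Hlf was at 2.53, 2.10, 2.69, 2.26 and 3.14 FPKM in PAMH replicates, against 2.11, 1.41, 1.64, 1.87 and 1.74 FPKM in control replicates 1 to 5. The groups of Hlf touched, since PAMH replicate 2 was just under control replicate 1, and the log2 fold change was 0.36 (SE 0.10; chromosome 11, 90336536 to 90390895). The highest Tef values were those of PAMH replicates 2 and 3, which had the lowest Dbp values of their group.

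As a sum, Dbp, Tef and Hlf were at 34.3 to 37.4 FPKM in PAMH and 14.3 to 20.9 FPKM in control hearts. Dbp made up 53.4% to 64.3% of this sum in PAMH and 29.8% to 48.7% in control hearts. The ratio of Dbp to Tef was 1.32 to 2.18 in PAMH samples, so Dbp was the more abundant in each of them, and 0.523 to 1.12 in control samples, where Tef was the more abundant in all but replicate 3. FPKM are values per length, which is the basis of such comparisons between genes. They are approximate here, since the annotation behind the lengths is not given and some Dbp reads may belong to Sphk2.

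Nfil3, the repressor of the D-box, had about the same level in both groups. It was at 3.76, 3.69, 2.58, 4.28 and 2.52 FPKM in PAMH replicates 1 to 5 and at 4.19, 3.55, 2.27, 4.02 and 3.01 FPKM in control replicates 1 to 5. The groups overlapped over nearly their whole range (3.37 ± 0.782 FPKM in PAMH and 3.41 ± 0.784 FPKM in control hearts, SD, n = 5 each; log2 fold change -0.01, SE 0.15; chromosome 13, 52967209 to 52981073), and the sign of the difference turned in 7 of 21 other settings. The ratio of Dbp to Nfil3 was 4.96 to 8.96 in PAMH samples and 1.06 to 4.47 in control samples. For the sum of the 3 activators over Nfil3 the groups overlapped, at 8.48 to 14.9 in PAMH and 3.55 to 9.19 in control hearts.

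**Figure D2:**
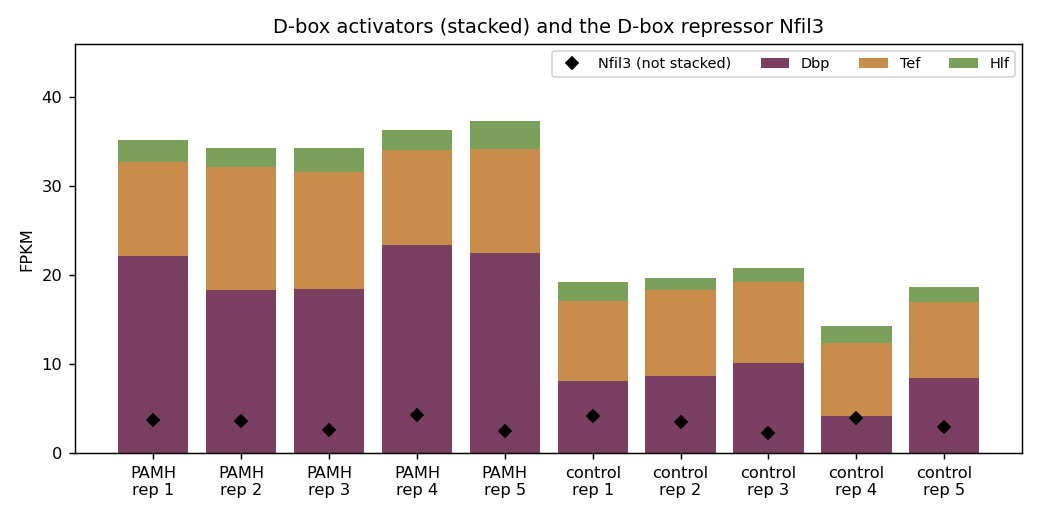
FPKM (vertical axis) of the D-box activators Dbp, Tef and Hlf as stacked bars and of the repressor Nfil3 as diamonds measured from 0, for each heart sample (horizontal axis, PAMH left). The stacked sums are 34.3 to 37.4 FPKM in PAMH and 14.3 to 20.9 FPKM in control samples, while Nfil3 overlaps between the groups.

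Both E-box repressors were higher in PAMH hearts. Bhlhe40 was at 8.97, 7.25, 5.44, 12.9 and 7.18 FPKM in PAMH replicates 1 to 5, against 4.17, 4.99, 4.89, 3.20 and 4.22 FPKM in control replicates 1 to 5. The groups did not overlap, although PAMH replicate 3 was close to the highest control, and PAMH replicate 4 stood well above the other samples (log2 fold change 0.78, SE 0.17; 0.63 without PAMH replicate 4; chromosome 6, 108660629 to 108666925). Bhlhe41 was at 2.73, 3.0, 2.12, 2.49 and 2.37 FPKM in PAMH replicates and at 1.16, 1.40, 1.83, 1.13 and 1.47 FPKM in control replicates 1 to 5. All of its PAMH values were above all control values (log2 fold change 0.57, SE 0.10; chromosome 6, 145858243 to 145865558). The ratio of Bhlhe40 to Bhlhe41 was 2.41 to 5.16 in PAMH and 2.67 to 3.60 in control hearts. The gene Gm43909, on the opposite strand, shares 1280 exon bases with Bhlhe41 and averaged 0.131 FPKM.

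Ciart, the gene with 3 E-boxes in its window, was at 3.09, 1.49, 2.30, 1.99 and 1.66 FPKM in PAMH replicates 1 to 5 and at 1.60, 1.20, 1.07, 0.628 and 1.27 FPKM in control replicates 1 to 5. Of the PAMH values 4 were above all controls, and replicate 2 was below control replicate 1. The means were 2.10 ± 0.631 FPKM in PAMH and 1.15 ± 0.352 FPKM in control hearts (SD, n = 5 each), a ratio of 1.82 like that of Bhlhe41, but with a spread of about 30% of the mean in each group (log2 fold change 0.52, SE 0.15; chromosome 3, 95878503 to 95882251). Ciart did not pass the threshold, except with sample sums set equal, with protein-coding genes alone, and without PAMH replicate 2.

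Rora had the lowest mean of the 8 over all 10 samples and the highest coefficient of variation in each group. It was at 1.20, 1.10, 1.52, 0.842 and 0.157 FPKM in PAMH replicates 1 to 5, against 1.47, 0.193, 1.22, 1.66 and 1.66 FPKM in control replicates 1 to 5. PAMH replicate 5 and control replicate 2 were far below the other 8 samples, which overlapped between the groups (log2 fold change -0.18, SE 0.24; chromosome 9, 68653786 to 69388246). Without these 2 samples, an omission chosen after seeing the data, it was -0.21, without PAMH replicate 5 alone -0.00072, and without control replicate 2 alone -0.39. Its mean was just above the minimum for testing, and 3.16% of the tested genes had a lower mean.

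**Figure D3:**
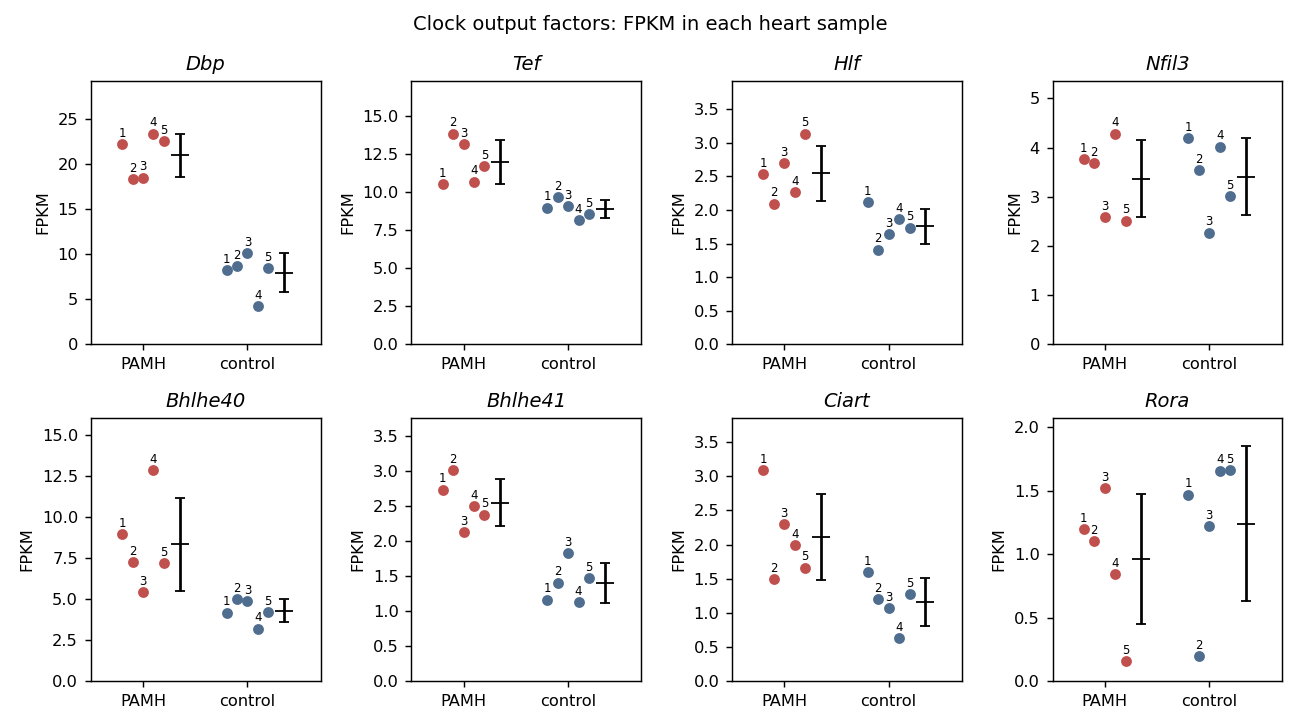
FPKM (vertical axes, each from 0) of the 8 members in every heart sample, with PAMH left and control right. Points carry the replicate number, and black bars give mean ± SD (n = 5); Dbp, Tef, Bhlhe40 and Bhlhe41 do not overlap between the groups, and Rora is lowest in PAMH replicate 5 and control replicate 2.

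By mean level, the order in PAMH hearts was Dbp, Tef, Bhlhe40, Nfil3, Bhlhe41, Hlf, Ciart and Rora, and in control hearts Tef, Dbp, Bhlhe40, Nfil3, Hlf, Bhlhe41, Rora and Ciart. In PAMH hearts the ranges of Dbp and Tef were apart, while those of Tef and Bhlhe40 overlapped. Bhlhe40 and Nfil3 were apart, and from Nfil3 down to Rora each gene overlapped with the next. In control hearts Tef and Dbp overlapped, Bhlhe40 was below both except that the lowest Dbp value lay within its range, and Hlf, Bhlhe41, Rora and Ciart could not be ordered beyond their spread. The coefficient of variation was lowest for Dbp (11.4%) in PAMH and for Tef (6.48%) in control hearts, and highest for Rora in both (53.2% in PAMH and 49.4% in control).

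Over all 8 members the test called 5 higher and 0 lower, and 3 were not called (limma, threshold of 0.05 on the adjusted p). Of all tested genes 6.19% were called, 4.95% higher and 1.24% lower. For 4 members all PAMH values were above all control values, and for none all below. Of the tested genes 8.44% did not overlap between the groups, 6.74% with all PAMH values above and 1.71% with all below. As the list was made with this contrast known, nothing is read from these counts. The median log2 fold change of the members was 0.46, beside 0.07 for all tested genes. Dbp and Bhlhe41 were past the threshold whenever any of the 10 samples was left out. Tef was not without control replicate 1, 3, 4 or 5, Bhlhe40 was not without PAMH replicate 1 or control replicate 1, 4 or 5, and Hlf was past it in 2 of the 10 omissions, those of PAMH replicate 2 and of PAMH replicate 4. Their log2 fold changes stayed at 0.34 to 0.43 for Tef, 0.63 to 0.90 for Bhlhe40 and 0.30 to 0.41 for Hlf over these omissions, and the count of called members was between 2 (without control replicate 1, 4 or 5) and 6 (without PAMH replicate 2). It was 3 without PAMH replicate 1 or control replicate 3. Without PAMH replicate 3, 4 members were called, and the call lost was that of Hlf. The calls of Tef and Hlf also ended under median ratio scaling and quantile normalization, those of Tef, Hlf and Bhlhe40 with no minimum on FPKM, and that of Hlf without both PAMH replicates 4 and 5.

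Samples that stood apart, and other cell types, were examined beside these values. PAMH replicate 4 had the highest erythroid sum, 863 FPKM, where the other PAMH samples had 97.3 to 250.1 FPKM and control samples 112 to 438 FPKM. It also had the fewest genes above 0 (16113, against 18037 to 21097 in the other 9 samples). PAMH replicate 5 had the next fewest, 18037. The summed level of 8 smooth muscle and pericyte markers was 140 to 185 FPKM in PAMH and 88.7 to 129 FPKM in control hearts, with 1 of 7 tested markers called, Acta2. The sum of 6 epicardial and mesothelial markers was 2.85 to 7.38 FPKM in PAMH and 0.404 to 1.21 FPKM in control hearts, and Upk3b, the 1 of them above the minimum, was called. These 2 sums did not overlap between the groups, and their part in the differences of the clock genes was not tested. Of the other marker lists, 1 of 8 macrophage markers (Cd68) was called higher and 1 of 8 endothelial markers (Cldn5) lower, while the lymphocyte and adipocyte lists summed to at most 1.37 FPKM in any sample, with Lep listed at 0 in all 10. The share of FPKM in mitochondrial genes was 51.5% to 56.6% in PAMH and 55.3% to 56.8% in control hearts. In heart tissue of mixed cell types, a difference in the number of cells of a type and in RNA per cell cannot be told apart.

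Of the other genes of the clock, Cry1 and a few outputs passed the test. The lists were chosen with earlier results of these data known, and they share genes, so their counts are given as a description. The lists covered 39 genes besides the members, of which 31 were tested. Of these 6 were higher, 1 was lower and 24 did not pass, where 4.95% of all tested genes were called higher and 1.24% lower. Their median log2 fold change was 0.11, beside 0.07 for all tested genes. In the core loop 1 of 13 tested genes passed. This was Cry1, a repressor of CLOCK and BMAL1, at 2.23, 2.83, 2.15, 2.10 and 2.42 FPKM in PAMH replicates 1 to 5 and at 1.79, 1.59, 1.42, 1.58 and 1.59 FPKM in control replicates 1 to 5 (log2 fold change 0.36, SE 0.08; limma adjusted p = 0.0182). All PAMH values of Cry1 were above all control values, as in 6.74% of all tested genes. The call of Cry1 ended without control replicate 3 (limma adjusted p = 0.0549).

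Arntl, which encodes BMAL1, was at 0.545, 0.698, 0.336, 0.135 and 0.215 FPKM in PAMH replicates 1 to 5, against 0.959, 0.814, 0.783, 1.48 and 0.921 FPKM in control replicates 1 to 5. All PAMH values were below all control values, and the ratio of the means was 0.389. With a mean under 1 FPKM Arntl was not tested, and when no minimum was set it did not pass (log2 fold change -0.53, SE 0.13; limma adjusted p = 0.101). Clock, its partner, averaged 1.12 ± 0.252 FPKM in PAMH and 1.68 ± 0.451 FPKM in control hearts and did not pass (SD, n = 5 each; log2 fold change -0.33, SE 0.12; limma adjusted p = 0.113). Control replicate 4 had the highest Arntl and the highest Clock of all 10 samples, and the lowest Dbp.

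Among the genes reported to carry an E-box, 1 of 6 tested passed, again Cry1, which also counts among those with a ROR element (1 of 3 tested). Of 5 tested genes reported to carry a D-box, the element of DBP, TEF, HLF and NFIL3, none passed in limma, and 2 had an unadjusted p under 0.05, where 2264 of all 9439 tested genes (24%) did. An unadjusted p under 0.05 was also found for 6 of 13 tested core loop genes, 2 of 6 with an E-box, 2 of 3 with a ROR element, 4 of 8 rhythmic in most organs and 10 of 18 reported outputs. Per1, a repressor of the core loop, averaged 4.95 ± 0.450 FPKM in PAMH and 4.73 ± 0.222 FPKM in control hearts (SD, n = 5 each; limma adjusted p = 0.703). Its relative Per2 averaged 2.24 ± 0.803 FPKM in PAMH and 1.39 ± 0.144 FPKM in control hearts (SD, n = 5 each; log2 fold change 0.41, SE 0.15; limma adjusted p = 0.118). Leaving out PAMH replicate 5 brought Per2 past the threshold (log2 fold change 0.53, limma adjusted p = 0.0411). Nr1d1, which encodes the repressor REV-ERBα of ROR elements, averaged 16.1 ± 3.01 FPKM in PAMH and 18.8 ± 1.79 FPKM in control hearts (SD, n = 5 each; log2 fold change -0.23, SE 0.12; limma adjusted p = 0.261). It was lower under quantile normalization (limma adjusted p = 0.0485). Nr1d1 shares 263 exon bases with Thra on the opposite strand, which averaged 11.3 FPKM. As no strand setting is given, reads of this stretch cannot be assigned to one of the genes. Per3, with 2 D-boxes in its window, averaged 1.45 ± 0.496 FPKM in PAMH and 0.777 ± 0.235 FPKM in control hearts (SD, n = 5 each; log2 fold change 0.45, SE 0.14; limma adjusted p = 0.0841).

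**Figure D4:**
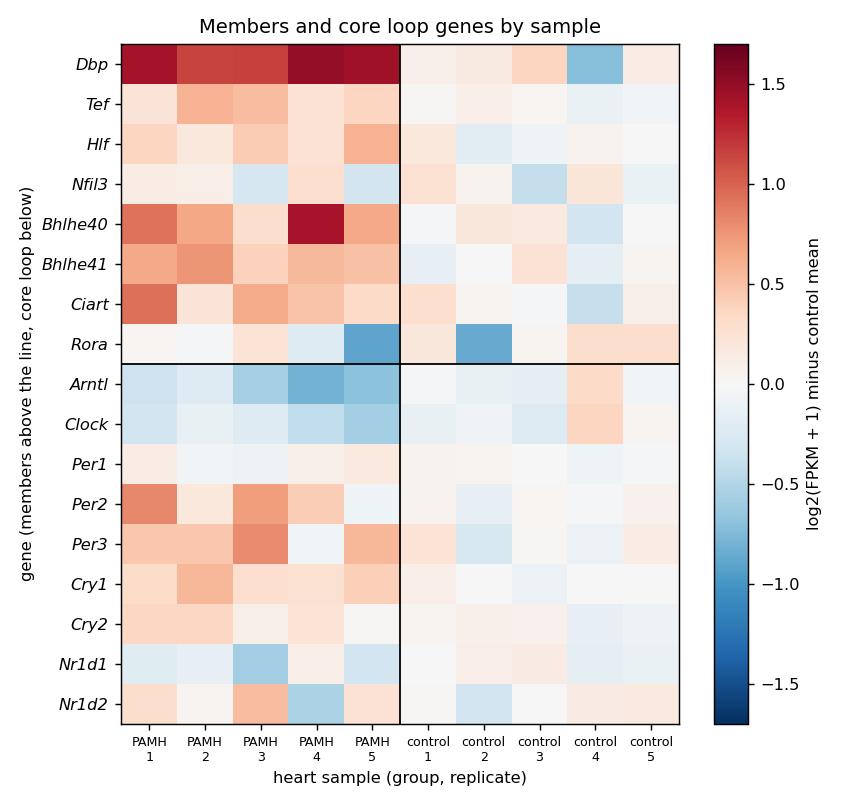
Difference of log2(FPKM + 1) from the control mean (colour, red above and blue below) for the 8 members and 9 core loop genes (rows) in each heart sample (columns, PAMH left). Dbp is red in all 5 PAMH samples and Arntl blue, Nfil3 is above and below the control mean in both groups, and Rora is blue in PAMH replicate 5 and control replicate 2.

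Reported outputs of the clock or of the PAR bZIP factors held the other calls, 5 higher and 1 lower of 18 tested genes. Their median log2 fold change was 0.13, and 6.19% of all tested genes were called. Wee1, a kinase that restrains entry into mitosis, was at 5.04, 4.88, 4.47, 3.78 and 5.17 FPKM in PAMH replicates 1 to 5 and at 3.02, 2.68, 3.06, 2.67 and 2.04 FPKM in control replicates 1 to 5 (log2 fold change 0.62, SE 0.10; limma adjusted p = 0.00538). Its groups were well apart, and the call held without any single sample. Tspan4, a tetraspanin, averaged 9.15 ± 1.42 FPKM in PAMH and 6.12 ± 0.330 FPKM in control hearts (SD, n = 5 each; log2 fold change 0.50, SE 0.09; limma adjusted p = 0.0115), and it was the 1 call among 8 tested genes reported as rhythmic in most organs. It shares 292 exon bases with Chid1 on the opposite strand.

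A channel gene, a sarcomere gene and a transcription factor gene were also called. Kcnh2, a repolarising potassium channel, averaged 11.0 ± 2.35 FPKM in PAMH and 7.05 ± 0.497 FPKM in control hearts (SD, n = 5 each; log2 fold change 0.55, SE 0.12; limma adjusted p = 0.0221). Tcap, which encodes the Z-disc protein telethonin, averaged 642 ± 24.2 FPKM in PAMH and 483 ± 62.9 FPKM in control hearts (SD, n = 5 each; log2 fold change 0.42, SE 0.09; limma adjusted p = 0.0158). Klf10, a zinc finger factor, fell to 1.31 ± 0.467 FPKM in PAMH hearts, against 2.76 ± 0.717 FPKM in control hearts (SD, n = 5 each; log2 fold change -0.71, SE 0.16; limma adjusted p = 0.0224). In these 3 genes too the groups did not overlap, as in 8.44% of all tested genes. Kcnh2 lost its call in 6 of 10 omissions of a sample (PAMH replicates 1 and 2 and control replicates 1, 3, 4 and 5), and Klf10 in 4 (PAMH replicates 1 and 5, control replicates 3 and 4), with limma adjusted p of at most 0.0638, and Tcap in none. Tcap lost its call under median ratio scaling, with no minimum on FPKM and without both PAMH replicates 4 and 5 (limma adjusted p of 0.0563 to 0.0699). Klf10 lost its call with no minimum and without both PAMH replicates 4 and 5 (limma adjusted p = 0.094 and 0.0755), and Kcnh2 with no minimum (limma adjusted p = 0.0789).

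**Figure D5:**
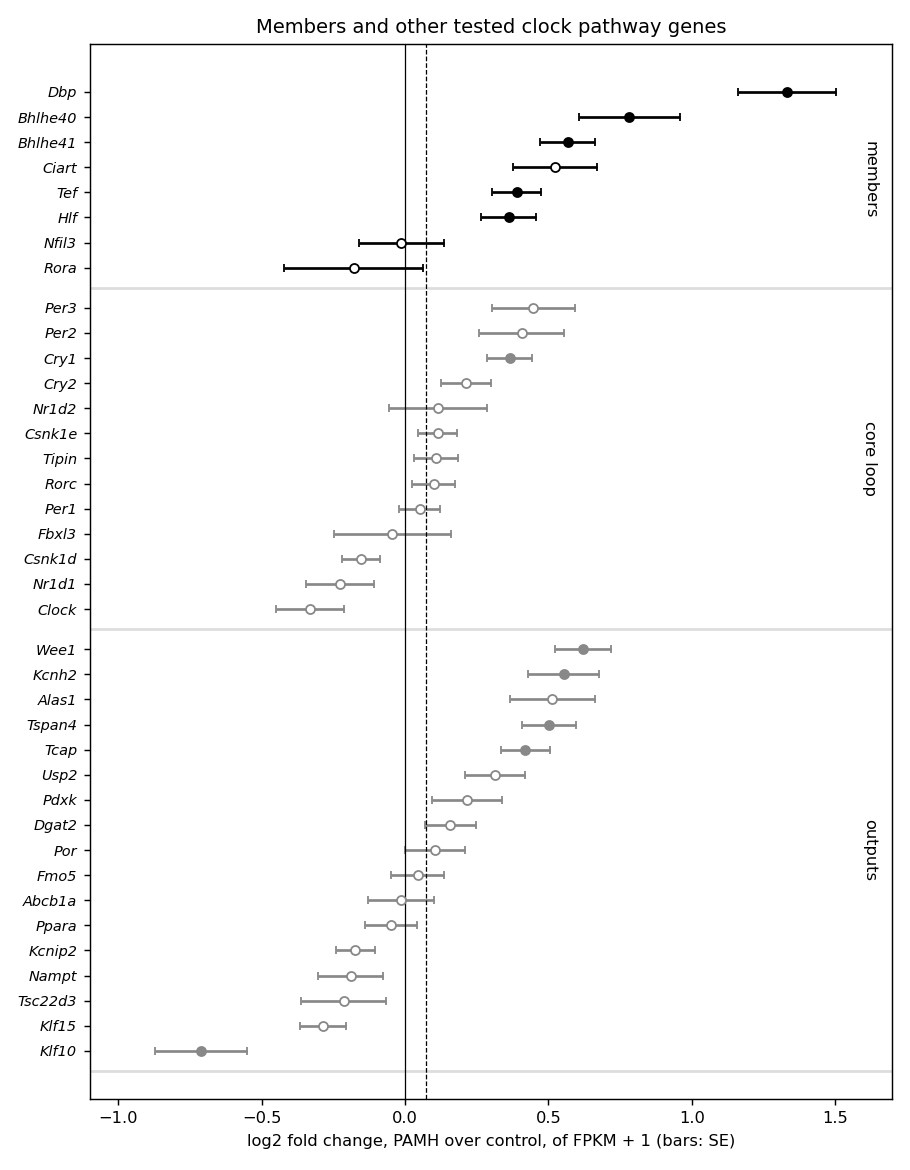
Log2 fold change of FPKM + 1, PAMH over control, with SE (horizontal axis) for the 8 members (black) and 30 other tested clock pathway genes (grey). Filled symbols passed the threshold, and the dashed line marks the median of all tested genes, 0.07. Dbp has the largest value, 1.33, and Klf10 the lowest, -0.71.

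Genes listed as relatives of the members did not pass. Of 6 tested genes listed as the C/EBP family, none was called (median log2 fold change 0.04). Most of them encode bZIP factors like DBP and NFIL3, but Cebpz (log2 fold change 0.0044) does not. Of 4 tested genes of the HES and HEY family, which share the bHLH-Orange structure of BHLHE40 and BHLHE41, none was called (0.08). Before adjustment, limma gave a p under 0.05 to 1 of the 6 and to 0 of the 4, where 24% of all tested genes had one. As 6.19% of all tested genes were called and the lists are short, no contrast with the members is read from these counts.

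Deviations from the group means, taken over all 10 samples as a description, showed which genes varied together within groups, in values that share a library and its scaling. The pairs given were picked from 120 after their values were seen. Dbp varied against Clock, with a Pearson r of -0.88 (Spearman's rho -0.68; r = -0.74 without control replicates 3 and 4, the samples farthest from their group means in Dbp), and against Arntl (r = -0.75, rho -0.82, and r = -0.63 without the same samples). With Bhlhe40 its r was 0.63 (rho 0.81, and 0.71 without them). For Dbp and Tef r was 0.02 (rho -0.09), but -0.69 without them. Bhlhe40 varied with Nr1d1 (r = 0.91, rho 0.87, and 0.71 without PAMH replicates 3 and 4). Against Nr1d2, the relative of Nr1d1, Bhlhe40 went the opposite way (r = -0.85, rho -0.64, and -0.43 without the same samples). Nr1d1 and Nr1d2 also varied against each other (r = -0.89, rho -0.83). Ciart varied with Per2 (r = 0.69, rho 0.81, and 0.70 without PAMH replicate 1 and control replicate 4).

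The tested genes most like a member across the 10 samples were found by the root mean square of the difference in log2(FPKM + 1) from the control mean. For Dbp these were Rtn4r, which encodes the Nogo receptor, at 0.26, then Ier3, an early response gene, at 0.28, and Ptgds, the prostaglandin D synthase gene, at 0.29. Rtn4r averaged 5.66 ± 1.27 FPKM in PAMH and 1.96 ± 0.486 FPKM in control hearts (SD, n = 5 each). For Bhlhe40 they were Mrm3, a methyltransferase of mitochondrial ribosomal RNA, at 0.13, Gstm1, a glutathione transferase with close paralogues, at 0.19, and the cardiac transcription factor gene Nkx2-5, also at 0.19. Mrm3 averaged 11.0 ± 3.46 FPKM in PAMH and 5.89 ± 0.484 FPKM in control hearts (SD, n = 5 each). For Bhlhe41 they were Mapkap1, a subunit of an mTOR kinase complex, at 0.09, and Ubac1 at 0.11. The root mean square includes the difference between the groups, so these genes need not follow a member within groups. The r of deviations from the group means with Dbp was 0.64 for Rtn4r, 0.48 for Ier3 and 0.45 for Ptgds. With Bhlhe40 it was 0.89 for Mrm3 and 0.85 for Gstm1 and Nkx2-5, and with Bhlhe41 0.83 for Mapkap1 and 0.62 for Ubac1.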

How the data were processed

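RNA-seq was made from total RNA of 10 heart samples, extracted with Trizol and made into libraries with a VAHTS kit, per the labels. The authors deposited FPKM for 55335 Ensembl genes, 1 column per sample, with sums of 654350 to 717453. The submitters' processing notes name build mm10, DESeq2 1.18.1, R 3.4.1, HTSeq 0.13.5, HISAT2 2.2.1, Trimmomatic 0.38 and FastQC 0.11.9, with no step assigned. The step that made the FPKM, its annotation and its strand setting: not given in the sources used here. Among genes averaging at least 1 FPKM, 99.1% of those with several annotated transcripts and 1.27% of those with a single one had values with more than 6 decimals, so gene values combine several transcript values, whole reads could not be recovered, and depth is unknown. No columns were identical.

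Identifiers were matched to GENCODE vM21 (GRCm38), which held 55154 of them. The 9439 genes averaging 1 FPKM or more were tested on log2(FPKM + 1) in limma 3.58.1 (R 4.3.3) with a group term and an intensity trend, 2-sided, with Benjamini-Hochberg adjustment over all of them. SE are those of limma. The procedure was checked on simulated data. Groups, replicate numbers and columns came from titles and descriptions. The members and lists were chosen with earlier results of these data known. Named genes were all members, Arntl, Clock, Per1, Per2, Cry1 and Nr1d1, and all listed genes past the threshold. To these were added the 3 genes most like each called member with a log2 fold change of at least 0.5 in size. Per3 and Nr1d2 fall outside this rule and were named after their values were seen. Where a symbol had several identifiers, the one with the highest mean was used. Alternatives were another pseudocount (0.1), no minimum or a mean of 5 FPKM, 3 scalings, sample weights, robust empirical Bayes, protein-coding genes only, a replicate block, and omission of samples. Figures were drawn with matplotlib 3.10.9. A listed gene is counted in the lists but not reported here by name.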

Additional observations from a re-analysis of the deposited data

Results flagged for a closer look

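In 84 groups of 5 values, 1 sample stood apart from its group in 7, by a gap of over 0.71 of the range. For independent groups of normal values this happens in about 1 in 20. These groups share samples and genes, so the 7 are a description and are not set against that rate. Control replicate 4 had 1.48 FPKM of Arntl, where the other controls had 0.783 to 0.959 FPKM. The ratio of Nr1d1 to Rora was 94.2 in PAMH replicate 5 (7.98 to 24.2 in the other PAMH samples) and 106 in control replicate 2 (10.1 to 17.0 in the other controls), both set by the low Rora values of these samples. PAMH replicate 4 had a rank correlation of 0.946 with the median sample, where the other PAMH samples had 0.973 to 0.981, and an erythroid marker sum of 863 FPKM (97.3 to 250.1 in the others). Control replicate 2 had a cardiomyocyte marker sum of 6290 FPKM (5074 to 5366 in the other controls). PAMH replicate 3 had an adipocyte marker sum of 1.37 FPKM (0 to 0.303 in the other PAMH samples).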

How the results depend on the processing

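Dbp and Bhlhe41 were past the threshold in every setting run in which they were tested. The members were chosen with this contrast known, so this describes the processing and is not further support. All 584 gene calls (467 higher, 117 lower) became 264 with no minimum, 1214 with sample weights, 360 without both PAMH replicates 4 and 5, and 202 without PAMH replicate 5 and control replicate 2, an omission chosen after seeing the data; leaving out 1 sample gave 278 (control replicate 3) to 1126 (PAMH replicate 3), and 297 to 345 without control replicate 1, 4 or 5 or PAMH replicate 1 or 5. Median ratio scaling gave 218 higher and 212 lower, and quantile normalization 234 and 246. The 5 called members became 2 with no minimum, 3 with the minimum at 5 FPKM (which left 3 to test), 3 under median ratio scaling, 3 under quantile normalization and 2 (Dbp and Bhlhe41) without PAMH replicate 5 and control replicate 2, and 2 to 6 without 1 sample. The 7 other clock genes called became 3, 12 (quantile normalization), 11 (sample weights) and, without PAMH replicate 5 and control replicate 2, 3 (Wee1, Tspan4 and Tcap), and 4 to 10 without 1 sample, 4 without PAMH replicate 1, control replicate 3 or control replicate 4. Their split was 5 higher and 4 lower under median ratio scaling and 7 and 5 under quantile normalization. The sign turned for Nfil3 (0.024 with each sample rescaled to the same sum, 0.076 without PAMH replicate 5 and control replicate 2, and -0.12 to 0.06 without 1 sample), for Rora (0.074 without PAMH replicates 4 and 5) and for Per1 (-0.031 and -0.039 under median ratio scaling and quantile normalization, -0.0021 without PAMH replicates 4 and 5). Causes were not tested. Replicate numbers are shared by both groups, but same-numbered samples did not deviate together (correlations of -0.19 to 0.16, and 3 of 10 samples correlated best with their own number). With the replicate block 239 genes, 3 members (Dbp, Tef and Bhlhe41) and 2 other clock genes (Wee1 and Tspan4) were called. With no read counts, no detection limit can be set.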

Other observations

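Rora was the only 1 of the 9439 tested genes whose values in PAMH replicate 5 (0.157 FPKM) and control replicate 2 (0.193 FPKM) were both under 50% of its lowest value in the other 8 samples (0.842 FPKM). Rora has 6 annotated transcripts, and the deposited gene values combine transcript values.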
